A study of Mus musculus with 4 samples.

Results

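The genes described here are 30 T-lineage genes, read in chromatin of mouse pre-B acute lymphoblastic leukemia cells. They are a named list out of 21887 coding genes in the mouse gene table. The rule that gives the list uses gene names and no peak values, but the list was drawn up with earlier results of these data known. The list holds the CD3 and pre-T-cell-receptor chains (Cd3d, Cd3e, Cd3g, Cd247, Ptcra), the coreceptors (Cd4, Cd8a, Cd8b1) and proximal signalling proteins of the T-cell receptor (Lck, Zap70, Lat, Themis, Trat1). It also holds transcription factors (Tcf7, Gata3, Bcl11b, Tox), Notch receptors and targets (Notch1, Notch3, Dtx1, Hes1), surface glycoproteins (Thy1, Cd2, Cd5, Cd6, Cd7) and genes of costimulation and activation (Cd28, Ctla4, Icos, Il2ra). Each was read at its transcription start site (TSS), as any called peak within 1 kb, and at its locus, meaning the gene body plus 20 kb on each side.

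All chromatin was from pre-B leukemia cells of the C57BL/6J strain, with the genotype BCR-ABL1 overexpressed, p19 null, and every library came from this 1 genotype with no treatment named. Chromatin immunoprecipitation and sequencing (ChIP-seq) gave 1 library each for PHF6, H3K27ac and H3K27me3. Another library, input DNA without antibody, was not analysed here. The labels do not say whether the cells were a clone or a pool.

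PHF6 is a chromatin-associated protein with zinc-coordinating domains, and its gene is recurrently inactivated in T-cell leukemia. H3K27ac, acetylation of lysine 27 on histone H3, marks active promoters and enhancers, while H3K27me3, trimethylation of the same residue, is deposited by Polycomb repressive complex proteins. T-cell commitment in the thymus starts with Notch signalling, which induces the factors TCF1 (gene Tcf7) and GATA3 and then BCL11B. The CD3 chains, the pre-T-cell-receptor chain and the coreceptors come on as cells commit and rearrange their receptor genes, and B-lineage cells normally keep most of these genes silent.

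The deposited lists held 77749 PHF6 peaks, 32388 H3K27ac peaks and 5616 H3K27me3 peaks, each with a summit height, the authors' whole-number pileup at the peak's highest point. Heights rank peaks within 1 list and were not compared between antibodies. Sequencing depth is unknown, and with 1 library per antibody no value has a replicate check and no test was made. RNA was not measured, so peaks say nothing here of transcript levels. As a check of the cell type, 16 of 19 pre-B marker genes with an annotated start had H3K27ac there, among them the B-cell factor gene Pax5 (height 313, summit 319 bp upstream). The B-cell receptor chain gene Cd79a had a height of 316 with the summit 5669 bp downstream. The surrogate light chain genes Vpreb1 and Igll1 shared 1 broad peak (height 329), whose summit lay 1732 bp and 7002 bp upstream of their starts. Of the other cell types, H3K27ac was at 0 of 9 myeloid starts, 0 of 5 natural killer starts, 2 of 5 erythroid starts (Klf1, height 283, and Hemgn, 17) and 1 of 2 stromal starts (Cxcl12, 16). H3K27me3 was at 1 of 19 pre-B starts (Vpreb3, 18) and 1 of 2 stromal starts (Cxcl12, 30). It was also at 3 of 9 myeloid starts (Elane, 11, S100a8, 22, and S100a9, 27), beside 3.27% of coding starts.

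PHF6 was called at the start of 18 of the 30 T-lineage genes, H3K27ac at 13 and H3K27me3 at 0. Over the 15578 coding genes with a promoter entry in the gene table, 68.1% had PHF6 at the start, 62.2% had H3K27ac and 3.27% had H3K27me3. The T-lineage share for PHF6 (60%) was thus near that over all coding genes. The share for H3K27ac (43.3%) was below that over all coding genes, but in 30 genes this difference was not tested. A count of 0 in 30 allows a share of up to 10% for H3K27me3, which the share over all genes does not exceed, so an absence of H3K27me3 particular to these genes was not detectable. Because 10 of the 30 have no promoter entry and were read at the known 5' end of the gene, the 20 with an entry were also counted alone. PHF6 was at 13 of those 20 and H3K27ac at 8.

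The starts fell into 4 classes. PHF6 and H3K27ac stood together at 11 genes (56.4% of coding genes), PHF6 without H3K27ac at 7 (11.7%), H3K27ac without PHF6 at 2 (5.74%) and neither at 10 (26.2%). The first class held all 4 transcription factors, all 4 Notch genes, and Lat, Thy1 and Cd5. The second held Cd3e, Cd247, Cd8a, Lck, Zap70, Cd6 and Cd7, and the third Cd2 and Cd28. The CD3 and pre-T-cell-receptor group and the coreceptors had H3K27ac at 0 of 5 and 0 of 3 starts.

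**Figure D1:**
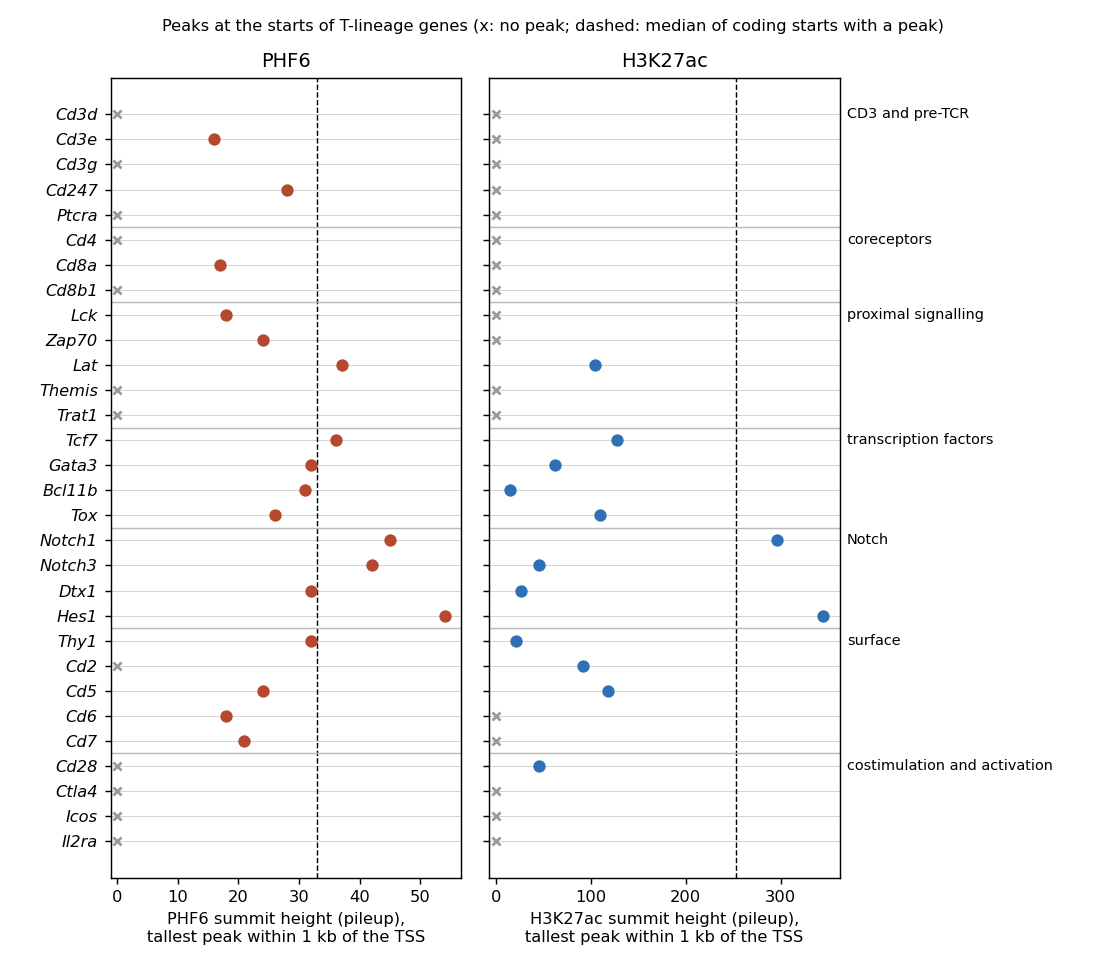
Summit height (horizontal axis, reads of pileup, the authors' value) of the tallest PHF6 peak (left) and H3K27ac peak (right) within 1 kb of the TSS of each of the 30 T-lineage genes (vertical axis, grouped by role). Crosses mark genes with no peak, and the dashed lines mark the median over coding starts with a peak, 33 for PHF6 and 253 for H3K27ac. Notch1 (296) and Hes1 (345) lie above the H3K27ac line, and every CD3, pre-T-cell-receptor and coreceptor gene has a cross for H3K27ac.

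The promoters below show the letters at acetylated starts and at starts with PHF6 alone. They are from RefSeq, build GRCm38.p6, written 5' to 3' on the strand of the gene, and hold up to 250 bases before the start that lie outside every annotated span of that gene. A promoter entry was available for 20 of the 30 members. Capitals mark each CpG dinucleotide, the site of DNA methylation in mammals. The first 4 belong to genes with H3K27ac at the start and the last 3 to genes with PHF6 there but no H3K27ac.
Notch1: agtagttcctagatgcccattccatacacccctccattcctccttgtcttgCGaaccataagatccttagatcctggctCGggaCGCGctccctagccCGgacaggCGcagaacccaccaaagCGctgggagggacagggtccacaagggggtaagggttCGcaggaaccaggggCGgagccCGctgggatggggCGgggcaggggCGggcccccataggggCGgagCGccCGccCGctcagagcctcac
Cd5: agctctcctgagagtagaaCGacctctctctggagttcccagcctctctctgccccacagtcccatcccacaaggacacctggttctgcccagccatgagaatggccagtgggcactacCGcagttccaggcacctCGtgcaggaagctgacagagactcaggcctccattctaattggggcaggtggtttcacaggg
Lat: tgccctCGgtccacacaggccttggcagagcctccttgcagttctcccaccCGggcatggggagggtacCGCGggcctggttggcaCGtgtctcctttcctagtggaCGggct
Notch3: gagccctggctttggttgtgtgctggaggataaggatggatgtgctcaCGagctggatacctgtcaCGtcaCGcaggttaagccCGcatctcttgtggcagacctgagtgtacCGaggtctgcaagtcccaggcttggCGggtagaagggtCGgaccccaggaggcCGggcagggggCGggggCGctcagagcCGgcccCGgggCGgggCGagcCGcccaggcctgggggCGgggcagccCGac
Zap70: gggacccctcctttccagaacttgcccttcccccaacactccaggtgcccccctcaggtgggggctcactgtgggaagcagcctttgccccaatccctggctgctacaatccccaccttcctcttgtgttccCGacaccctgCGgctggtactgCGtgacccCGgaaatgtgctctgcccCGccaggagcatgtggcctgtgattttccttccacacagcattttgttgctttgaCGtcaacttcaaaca
Lck: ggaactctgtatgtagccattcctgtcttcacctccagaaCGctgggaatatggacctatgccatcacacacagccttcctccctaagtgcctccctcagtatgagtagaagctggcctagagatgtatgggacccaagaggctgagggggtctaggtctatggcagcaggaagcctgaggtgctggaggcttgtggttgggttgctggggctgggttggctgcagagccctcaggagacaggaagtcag
Cd8a: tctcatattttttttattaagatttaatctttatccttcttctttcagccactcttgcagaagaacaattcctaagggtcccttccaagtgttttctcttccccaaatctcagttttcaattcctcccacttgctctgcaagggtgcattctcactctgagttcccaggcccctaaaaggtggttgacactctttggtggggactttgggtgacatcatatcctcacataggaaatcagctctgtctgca

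These stretches held 16 CpG in 250 bases for Notch1, 17 in 244 for Notch3, 6 in 113 for Lat and 3 in 198 for Cd5. Zap70 held 6 in 250 bases, Lck 1 in 250 and Cd8a 0 in 250. The printed acetylated promoters thus run from CpG-dense (Notch1 and Notch3) to CpG-poor (Cd5). Zap70 (2.4 CpG per 100 bases) had more than Cd5 (1.52), so the printed stretches do not separate the classes.

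A second measure, the CpG ratio, was taken for every promoter with an entry. It is the observed number of CpG over the number its C and G content gives, in the full 300 bases (250 before to 50 after the start). Its median was 0.659 for the 8 T-lineage promoters with PHF6 and H3K27ac, 0.289 for the 5 with PHF6 alone and 0.108 for the 7 with neither. Over all coding genes the medians in these classes were 0.787, 0.389 and 0.164, so the order of the medians was the same. The classes overlapped gene by gene, since Cd5 (0.126) lay below all 5 genes with PHF6 alone (0.198 to 0.341) and Lat (0.31) lay among them. Of the 20 promoters, 7 had a ratio of at least 0.6 (Bcl11b, Ctla4, Dtx1, Gata3, Notch1, Notch3 and Tcf7), and 6 of these 7 had H3K27ac, against 91.3% of coding promoters in that range. Ctla4, with a ratio of 0.609, was the 1 without it. Below 0.6, 2 of 13 had H3K27ac (Lat, with a ratio of 0.31, and Cd5, with 0.126), against 31.3% of coding promoters. All CD3 and pre-T-cell-receptor promoters, and that of Cd8a, were among these 13. Ptcra had the lowest ratio of the 20, 0.0357, and no PHF6 or H3K27ac at its start.

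**Figure D2:**
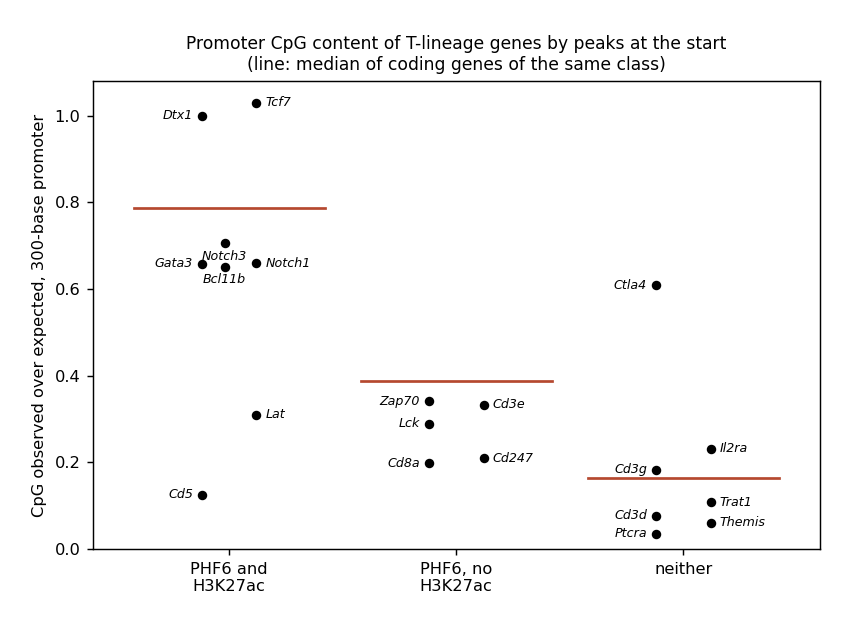
CpG observed over expected (vertical axis, ratio with no unit) in the 300-base promoter of the 20 T-lineage genes with a promoter entry, by peaks at the start (horizontal axis). Each point is 1 gene, and each line is the median over all coding genes of the same class (0.787, 0.389 and 0.164). Of the 8 genes with both peaks, 6 lie above 0.6, all 5 with PHF6 alone lie below 0.4, and Ctla4 stands above the other 6 genes with neither.

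Short motifs of factors active in lymphocytes were looked for in the same 300 bases, on both strands. CAGCTG, a core bound by E proteins, was in 5 of 20 T-lineage promoters against 15.1% of 17492 promoters. TGGGAA, a core bound by the Notch partner RBPJ, was in 9 of 20 against 24.5%, and these letters are also part of many Ikaros sites. CTTTGA, a core bound by TCF1 and LEF1, was in 6 of 20 against 14.9%. AGATAA, bound by GATA factors, was in 1 of 20 (Cd3g) against 9.94%, and TGTGGT, bound by RUNX factors, in 3 of 20 against 15.1%. The palindromic EBF1 motif was in 0 of 20 against 0.92%. Ptcra held 3 CAGCTG and 2 TGGGAA matches and Cd3d held 2 of CTTTGA, both at starts without any peak. A match only says that the letters are present.

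All 4 transcription factor genes carried PHF6 and H3K27ac at the start, beside 56.4% of coding genes. For Gata3 this call depended on its placement in mm9. Tcf7, encoding TCF1, had a PHF6 summit of height 36 lying 58 bp downstream of the start and an H3K27ac summit of height 128 lying 65 bp downstream (chr11:52095326-52097439 in mm9). Further H3K27ac peaks of heights 122 and 104 lay 9.8 kb and 14.2 kb inside the gene, both on PHF6. Its locus held 10 PHF6 and 8 H3K27ac peaks, and the tallest of each (48 and 360) was at the start of the neighbouring gene Skp1.

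Gata3, a zinc-finger factor of early T-cell and type 2 helper cells, had 2 PHF6 peaks at the start. The taller (32) had its summit 962 bp downstream and did not overlap H3K27ac, while the other (29) lay 264 bp upstream on the H3K27ac peak of height 62 (chr2:9799935-9801386). Its locus held 8 PHF6 peaks, of which 2 were on H3K27ac. With offsets taken from H3K27ac summits of height 300 or more, Gata3 moved by 66039 bp and had no peak at its start or in its locus.

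Bcl11b, which fixes T-cell identity, had PHF6 of height 31 at the start, in a peak of 4399 bp, and H3K27ac of height 15 (chr12:109240685-109241547). That H3K27ac height was at percentile 4.52 of the H3K27ac list and was the lowest among the 13 acetylated members. The locus held 18 PHF6 peaks, with 3 on H3K27ac, and none of its 4 H3K27ac peaks was taller than 18. Most PHF6 peaks here were thus inside the gene and away from called acetylation.

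Tox, a factor needed for CD4 lineage T cells and induced in exhausted T cells, had 2 PHF6 peaks at the start, of heights 26 and 23, both on an H3K27ac peak of height 110 (chr4:6916410-6918691). No other PHF6 peak was called in the locus, although Tox has the longest body of the 30 genes at 305 kb, and 2 lower H3K27ac peaks (48 and 19) lay inside the gene off PHF6. Tox rests on a thinner placement in mm9 than the other genes (3 matched starts within 1.5 Mb).

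Among the 30 genes, Notch1 and Notch3 held the most PHF6 peaks, and Hes1 and Notch1 had the tallest acetylation at the start. Notch1, the receptor that starts T-cell commitment, had PHF6 of height 45 and H3K27ac of height 296 at the start (chr2:26357068-26360542), with summits 373 bp and 232 bp downstream. Its locus held 22 PHF6 peaks, the highest count, of which 15 were on H3K27ac, and 16 H3K27ac peaks, of which 1 was off PHF6. The tallest H3K27ac peak inside the body reached 116, at 20.3 kb from the start.

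Hes1, a repressor induced by Notch, had the tallest start peaks of the 30 genes for both antibodies, PHF6 of height 54 (percentile 99.3) and H3K27ac of height 345 (percentile 96.3; chr16:30062676-30065198). These summits lay 1537 bp and 1527 bp upstream, and the peaks reached into the 1 kb window with their edges. A second H3K27ac peak of height 165 lay over the gene, and 1 of height 276 lay 4.89 kb downstream of the start, on PHF6 of height 42.

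Notch3, a receptor expressed in immature thymocytes, had PHF6 of height 42 and H3K27ac of height 46 at the start, with summits at 1060 bp and 1059 bp downstream (chr17:32302305-32304413). A taller H3K27ac peak, height 145, lay 2.58 kb inside the gene, on PHF6 of height 43. Of 19 PHF6 peaks in the locus, 7 were on H3K27ac. Dtx1, encoding the Notch regulator Deltex, had PHF6 of height 32 and H3K27ac of height 27 (chr5:121159876-121162046). Its locus held 18 PHF6 peaks with 7 on H3K27ac, and no H3K27ac peak was taller than 41. PHF6 peaks thus numbered 18, 19 and 22 at Dtx1, Notch3 and Notch1, in loci of 71.7, 86.1 and 85.9 kb, and 7 at Hes1, in 42.4 kb. Such counts were not particular to this group, since Zap70 held 15 in 61 kb and Bcl11b 18 in 134 kb. The H3K27ac heights at the start of the 4 Notch genes spanned 27 to 345.

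In the proximal signalling group, Lat, the adaptor phosphorylated by ZAP-70, was the 1 gene with H3K27ac at its first start. It had PHF6 of height 37 and H3K27ac of height 104 (chr7:133512038-133514198), with summits 226 bp and 245 bp downstream. The taller H3K27ac peak of its locus (248) was at the start of Spns1.

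Lck, the kinase that phosphorylates the CD3 chains, had PHF6 of height 18 at the start and no H3K27ac there. The nearest H3K27ac summit lay 1.63 kb upstream (height 29). Its second annotated start, 15.3 kb downstream, had PHF6 of height 29 and H3K27ac of height 109 (chr4:129232710-129236316). The 2 starts of this gene thus differed in their marks, and counting Lck at any annotated start would move it to the class with both.

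Zap70, the kinase recruited to phosphorylated CD3 chains, had PHF6 at all 3 annotated starts, with tallest heights of 24, 26 and 22, and H3K27ac at none. Its locus held 15 PHF6 peaks, of which 4 were on H3K27ac, and the tallest of its 4 H3K27ac peaks (72, at chr1:36822633-36825091) lay 5 kb inside the gene off PHF6. That H3K27ac peak began shortly past the 1 kb window of the second start, which lies 2.72 kb downstream of the first. Themis, which tunes receptor signals in thymocytes, had no peak of any list in its locus, whose gene body spans 215 kb. Trat1, an adaptor that associates with the receptor complex, had 1 PHF6 peak of height 19 downstream of its end and no H3K27ac.

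The CD3 and pre-T-cell-receptor genes had PHF6 at 2 of 5 starts. Among coding starts 68.1% had it, and 42.7% of those with a CpG ratio under 0.6. Cd3e had a PHF6 peak of height 16 (chr9:44817241-44817922), at percentile 6.76 of its list, and Cd247, the zeta chain, had 1 of height 28 (percentile 79.6; chr1:167718720-167719682). Cd3d and Cd3g had no PHF6 peak in their loci. An H3K27ac peak of height 125 at chr9:44793617-44795550 lay 4.67 kb from the start of Cd3d, inside that gene, and 6.03 kb upstream of Cd3g. It did not overlap PHF6, and since Cd3d, Cd3e and Cd3g are neighbours it counts in all 3 loci. The other H3K27ac peak near Cd3d and Cd3g (133) was at the start of Ube4a.

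Cd247 had 13 PHF6 peaks in its locus, of which 3 were on H3K27ac. The annotated body of Cd247 extends upstream of the start read, to -8.73 kb. Near that end lay an H3K27ac peak of height 25, its summit 7.62 kb upstream of the start read, on PHF6 of height 21. These were not counted as start peaks, and whether that end is a further start of Cd247 was not tested. The tallest PHF6 peak (34) and an H3K27ac peak of height 85 lay together 56.3 kb inside the gene, whereas the tallest H3K27ac peak (227) was at the start of Creg1. Ptcra, encoding the pre-T-cell-receptor alpha chain, had no peak at its start. Each of its 3 H3K27ac peaks, of heights 378, 284 and 94, was at the start of a neighbour (Cnpy3, 2310039H08Rik and Rpl7l1), and its 8 PHF6 peaks included 2 at such starts.

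Among the coreceptors, Cd4 had no peak at its start. Its locus held 10 PHF6 peaks, 3 of them on H3K27ac near Gpr162, and an H3K27ac peak of height 75 at Lag3. The nearest PHF6 peak to its start (25) lay 6.07 kb inside the gene and was off H3K27ac. Cd8a had PHF6 of height 17 at the start (chr6:71323245-71324757) and of height 20 at 3.33 kb, no H3K27ac in the locus, and an H3K27me3 peak of height 10 at 16.3 kb. Cd8b1 had no peak of any list.

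The surface genes were mixed. Thy1, the classical mouse T-cell glycoprotein, had PHF6 of height 32 and H3K27ac of height 21 at the start (chr9:43851073-43852280). All 5 PHF6 peaks of its locus were on H3K27ac, and an H3K27ac peak of height 66 lay 3.25 kb from the start. Cd5, a negative regulator of receptor signals that is also found on B-1 cells, had PHF6 of height 24 and H3K27ac of height 118 (chr19:10812618-10814290), with 12 PHF6 peaks in the locus and 4 on H3K27ac.

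Cd2, an adhesion receptor, was acetylated without PHF6 at the start. An H3K27ac peak of 7583 bp (chr3:101089559-101097141; height 92) ran across the start with its summit 2633 bp upstream, and its far upstream end overlapped PHF6 of height 25 at 4.79 kb. Its locus held 7 H3K27ac and 5 PHF6 peaks. Cd6, a relative of CD5, had PHF6 of height 18 and Cd7 had PHF6 of height 21 at the start, both without H3K27ac. Cd7 had 4 PHF6 peaks and no H3K27ac peak in its locus. For Cd6 the tallest H3K27ac peak (215) was at the start of Slc15a3.

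The costimulation and activation genes had PHF6 at 0 of 4 starts, beside 68.1% of coding starts, a difference that was not tested. Cd28 had an H3K27ac peak of height 46 (chr1:60801894-60803856) at the start, but Cd28, Ctla4 and Icos, which are neighbours, lie between 2 stretches whose offsets to mm9 differ by 10246 bp. Under the other offset Cd28 had no H3K27ac at the start, and the locus counts of all 3 genes were the same. Icos had no peak of any list. Ctla4 had a region 7.83 kb upstream called in all 3 lists, with PHF6 of height 29, H3K27ac of height 16 and H3K27me3 of height 35 (chr1:60957383-60958572). Whether that region is also high in the input library was not tested.

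Il2ra, the interleukin-2 receptor alpha chain that marks stages of thymocyte and pre-B development, had no peak at its start and 6 H3K27ac peaks in its locus. Of these, 5, of heights 29 to 79, lay 13.4 kb and 5.72 kb upstream, 10.9 kb and 19.8 kb inside the gene and 19.5 kb upstream, and none was on PHF6. The sixth (327) and the only PHF6 peak of the locus (44) were at the start of Il15ra. With offsets from H3K27ac summits of height 300 or more, Il2ra moved by the same 66039 bp as Gata3 and its locus held 4 PHF6 and 5 H3K27ac peaks. As placed, Il2ra and Zap70 differed mainly in PHF6, with 1 and 15 peaks beside 6 and 4 H3K27ac peaks.

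**Figure D3:**
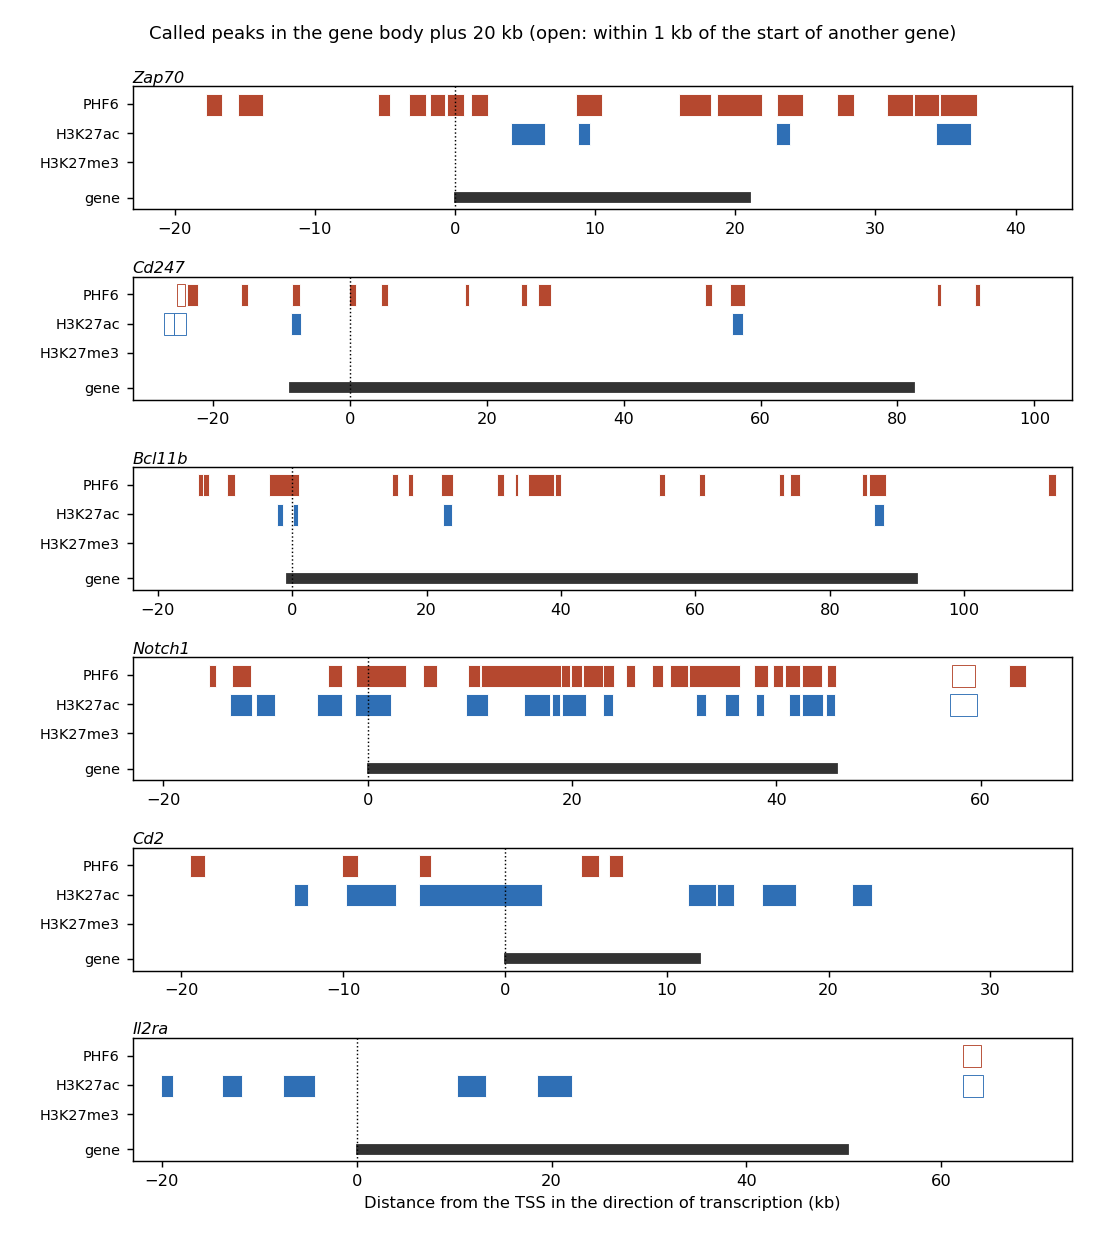
Called peaks (coloured blocks, 1 row per antibody) in the loci of 6 T-lineage genes, placed by distance from the TSS in the direction of transcription (horizontal axis, kb), with the gene body in black. Open blocks are peaks within 1 kb of the start of another gene. Zap70, Cd247 and Bcl11b carry 15, 13 and 18 PHF6 peaks against 4 H3K27ac peaks each, Notch1 carries 22 and 16, Cd2 5 and 7, and Il2ra 1 and 6.

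Over whole loci, 25 of the 30 genes had a PHF6 peak, 24 had H3K27ac and 4 had H3K27me3. Among 19375 coding genes placed, 87.9%, 78.3% and 26.3% did. Leaving out peaks within 1 kb of the start of another gene, 24 genes had PHF6, 23 had H3K27ac and 3 had H3K27me3. The H3K27me3 peaks had heights of 10 (Cd8a), 15 (Lck, at the start of Eif3i), 17 (Tcf7, at the end of its body) and 35 (Ctla4), on both sides of the list median of 16. PHF6 peaks outnumbered H3K27ac peaks at 19 of the 30 loci, were fewer at 7 and equal at 4, and outnumbered them at 66.8% of coding loci.

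The 30 loci held 207 different PHF6 peaks, of which 84 overlapped H3K27ac by at least 1 bp. That share was 40.6% (exact 95% interval 33.8% to 47.6%, counting error only), beside 34.4% for PHF6 peaks in loci of coding genes, 30.3% for the whole PHF6 list and 55% (46.7% to 63.2%) in loci of the pre-B markers. The intervals in this paragraph treat peaks as independent, so the spread between genes is not measured. The 4 Notch genes alone gave 66 of the 207 peaks and 32 of the 84 on H3K27ac. PHF6 peaks on H3K27ac had a median height of 28.5 (quartiles 24 and 33) and those off it 21 (18 and 23). The whole PHF6 list showed the same order, with medians of 29 and 20. By role, the share on H3K27ac was 21.7% for the CD3 and pre-T-cell-receptor genes (5 of 23), 34.2% for the transcription factors (13 of 38) and 48.5% for the Notch genes (32 of 66), with intervals that overlap (7.46% to 43.7%, 19.6% to 51.4% and 36% to 61.1%). Read from the other side, 80 of 109 H3K27ac peaks in the 30 loci were on PHF6 (73.4%), beside 75.8% of H3K27ac peaks in loci of coding genes and 71.7% of the whole H3K27ac list.

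The 11 starts with both peaks had a median PHF6 height of 32 (24 to 54), and the 7 with PHF6 alone a median of 18 (16 to 28). Cd247 (28) and Zap70 (24) overlapped the range of the first class and the other 5 lay under it. The median H3K27ac height of the 13 acetylated starts was 92, beside 253 over acetylated coding starts and 254 over the 16 acetylated pre-B markers. Hes1 and Notch1 alone reached the median of coding starts.

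Other genes of the same pathways were read from longer lists of the same roles. Over all coding starts, 68.1% had PHF6 and 62.2% had H3K27ac. Of 9 other T-cell-receptor signalling genes with an annotated start, 6 had PHF6 and 5 had H3K27ac, the tallest at Fyn (265), a kinase related to LCK and used in many cell types. Of 19 other Notch pathway genes, 18 had PHF6 and 18 had H3K27ac, with the tallest at Maml1 (350), a coactivator. The ligand genes Dll1 and Jag1 also had H3K27me3 at the start (heights 16 and 17). Of 11 other T-lineage transcription factors, 10 had both PHF6 and H3K27ac, with the tallest H3K27ac at Zbtb7b (356), and Id3 and Tbx21 also had H3K27me3 (49 and 16). PHF6 without H3K27ac was at 1 of 9, 1 of 19 and 0 of 11 of these starts, and at 0 of 19 pre-B starts. In the lists of other lineages it was at 2 of 9 myeloid starts (22.2%), 1 of 5 erythroid and 1 of 5 natural killer starts. It was at 23.3% of the T-lineage starts and 11.7% of all coding starts. These lists are small, and no difference between them was tested. H3K27ac without PHF6 was at 6 of 19 pre-B starts, beside 5.74% of all coding starts. Among the 6, Cd79a and Igll1 were called through broad peaks with summits 5669 bp and 7002 bp from their starts. The Igll1 peak also covers the start of Vpreb1, where PHF6 (height 27) was called, so this count depends on reading peaks by their edges.

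**Figure D4:**
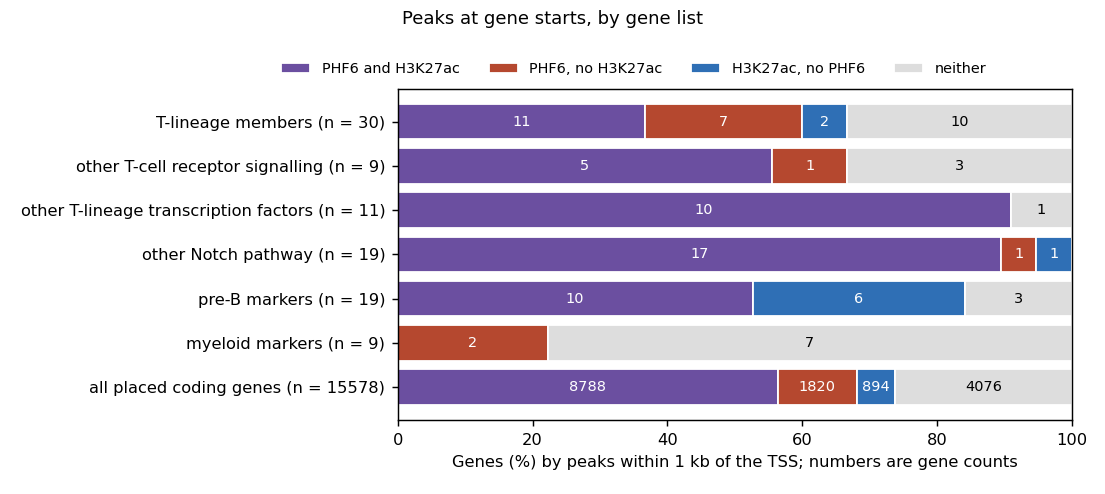
Share of genes (horizontal axis, percent) by peaks within 1 kb of the TSS for 7 gene lists, with gene counts printed in the bars. The T-lineage genes show 11 starts with PHF6 and H3K27ac, 7 with PHF6 alone, 2 with H3K27ac alone and 10 with neither, and the pre-B markers 10, 0, 6 and 3.

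Tox, Cd28, Ctla4 and Icos missed the planned rule for placing genes in mm9. Without them PHF6 was at 17 of 26 starts and H3K27ac at 11 of 26. Their loci left out, 40.1% of the PHF6 peaks were on H3K27ac.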

How the data were processed

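PHF6, H3K27ac and H3K27me3 ChIP-seq libraries were analysed, 1 each. Per the submitters' processing notes, Bowtie2, SAMtools and MACS 1.4.0 were used with mouse build mm9, in an order and with options not given in the sources used here. The list names, written by the authors, give a threshold of 1e-06 and mark PHF6 and H3K27ac, but not H3K27me3, as called without local lambda. The deposited score per peak has a smallest value of 60, and the deposited signal per summit is a pileup height with a largest value of 400 in each list.

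The gene table is GRCm38.p6, so genes were moved to mm9 by local offsets. Offsets were chosen so that H3K27ac summits of height 200 or more fell within 400 bp of annotated starts, giving 119 stretches. Matched starts were then counted at a wider distance, and genes were placed only by stretches with at least 8 of them. The step was tried on summits simulated on chromosomes 2 and 10. There 1768 of 1782 and 981 of 1001 genes were placed, and 100% of those lay within 150 bp of the true offset. The simulation held only a few long stretches per chromosome, so it does not check the placement of single members such as Gata3 and Il2ra. The fit to the data uses H3K27ac itself. Leaving out a gene's own start moved no offset by over 1 bp. Only deposited peak positions are printed. The fitting procedure was settled after several versions had been tried on these data, the last of which also used both ends of genes without a promoter entry. The plan was not to place genes with fewer than 4 matched starts nearby or no clear best shift. Tox (3 matches within 1.5 Mb) and Cd28, Ctla4 and Icos (between stretches) were nonetheless kept, a departure from it, while genes between stretches were left out of the background. The strand of the 10 members without a promoter entry is from known gene orientation.

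The 30 members and all gene lists were chosen with earlier results of these data known. All members are described, and other lists are named by their tallest H3K27ac and any H3K27me3. Printed promoters are the 4 tallest in H3K27ac and 3 with PHF6 alone that have at least 100 bases outside the gene. The numbers and the base minimum were set after values and sequences were seen, which replaced Tcf7 and Cd247 by Notch3 and Cd8a. The CpG ratio limit of 0.6 and the loci plotted were also chosen after seeing the data. Overlap meant at least 1 shared bp, and intervals are exact (Clopper-Pearson). No p-value was computed. Alternatives were other windows, thresholds, offsets and starts. Python 3.11.15, pandas 2.3.3 and scipy 1.17.1 were used.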

Additional observations from a re-analysis of the deposited data

How the results depend on the processing

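The 7 results (members with each of the 3 marks at the start and in the locus, and the share of locus PHF6 peaks on H3K27ac) were recomputed 73 times in all, and 70 values stayed within 1.5 times the reported count or inside the reported interval. PHF6 at the start ranged from 16 to 19 genes and H3K27ac from 9 to 15. The 9, against 13 as reported, came from asking for the summit itself in the window. PHF6 in the locus ranged from 22 to 28, H3K27ac in the locus from 20 to 27, and the share from 36.5% to 44.6%. H3K27me3 at the start was 0 in all 11 of its settings, which are among the 70. The count of loci with H3K27me3 (4) was 1 in the gene body only, 9 with 50 kb on each side and 2 at a score of at least 100. The wider and narrower windows and the higher score change which peaks can be counted by construction. Offsets from summits of height 300 or more moved Gata3 and Il2ra by 66039 bp, and Gata3 then lost its PHF6 and H3K27ac calls at the start (17 and 12 genes). The alternative without Tox, Cd28, Ctla4 and Icos, the other offset and the use of either gene end were chosen after seeing the data. No paired analysis was possible because there was a lone library for every antibody. Absence of a peak means only that none passed the authors' threshold at an unknown depth.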
